A study of Mus musculus with 2 samples.

Results

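The TGF-β and BMP family genes described here were 10 of the 27998 genes in the count tables of a single-cell RNA-seq study of allergic contact dermatitis (ACD) in mouse ear skin. They were taken by name and comprised the ligands Tgfb1, Tgfb2, Tgfb3, Inhba, Bmp2, Bmp4 and Gdf10, the receptors Tgfbr1 and Tgfbr2, and the TGF-β-induced matrix gene Tgfbi. All 10 were found in both libraries. They were described by cell class, dermal fibroblast (dFB) subtype and cartilage state, in ACD against control (CTRL).

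TGF-β and BMP ligands are secreted dimers that bring type I and type II serine/threonine kinase receptors together on the target cell, and the type I receptor then phosphorylates Smad proteins that enter the nucleus and control transcription. TGF-β is stored in the matrix in a latent form and is activated by integrins and proteases. In skin the family is known for its part in matrix production by fibroblasts, in the hair follicle cycle, in cartilage, and in restraining T cells.

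Ear skin of ICR mice aged 7 to 8 weeks was digested to single cells and sequenced by 3′ droplet RNA-seq. The CTRL library came from healthy mice. Mice of the ACD library were sensitized on the back with 1.0% DNFB, a hapten that couples to skin proteins, were challenged 6 days later on the ears with 0.2% DNFB, and were sampled 60 hr after the challenge. Each condition was 1 library, the number of mice in each was not given in the sources used here, and no test of ACD against CTRL was possible.

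The deposited values were counts of unique molecular identifiers (UMIs), each marking a captured RNA molecule. The CTRL library held 12895 barcodes and 99037698 UMIs, and the ACD library 13163 barcodes and 126566870 UMIs. Barcodes were kept with over 200 and under 5000 genes, no more than 25000 UMIs and less than 8% of UMIs from mitochondrial genes. This left 12213 CTRL cells with a median of 6850 UMIs and 11665 ACD cells with a median of 7447 UMIs. The kept cells of the libraries shared 47 barcodes. Clusters were called "X-like" from marker genes, and the 10 genes and the rest of their pathway were kept out of the clustering. Chondrocyte-like cells were the largest class (5139 CTRL and 3746 ACD cells), dFB-like cells numbered 3387 and 1531, and T/NK/ILC-like cells 834 and 3348. Keratinocyte-like cells were few for skin, with 179 and 140 cells. Endothelial-like cells (132 and 94) were led mainly by lymphatic genes. Within some of the classes, clusters with markers of more than 1 class were set apart as mixed (829 and 783 cells).

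The level of a gene in a class is its UMI sum over all UMIs of that class, per 1000000 UMIs. Each level has an exact 95% Poisson interval, and each log2 ratio of ACD over CTRL an exact 95% interval. These intervals cover counting error only and hold no spread between mice. A gene was compared in a class when it had at least 50 UMIs there over both libraries.

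The genes were expressed in different compartments, and the class with the highest level was often the same in both libraries. Among the classes with at least 50 cells in both libraries, Tgfb1 and Tgfbr2 were highest in endothelial-like cells, Tgfb2 and Bmp4 in muscle satellite-like cells, Bmp2 in chondrocyte-like cells and Inhba in vascular smooth muscle cell (VSMC)-like cells. Tgfb3 was highest in chondrocyte-like cells in CTRL and in VSMC-like cells in ACD, where the intervals of these classes overlapped. Tgfbi was highest in dFB-like cells in CTRL, with an interval that overlapped that of endothelial-like cells, and in mononuclear phagocyte-like cells in ACD. For Tgfb1 the intervals of endothelial-like and T/NK/ILC-like cells overlapped in both libraries. Tgfbr1 was highest in mast cell-like cells, from 11 and 24 UMIs, and Gdf10 in endothelial-like cells, from 16 and 17 UMIs.

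**Figure D1:**
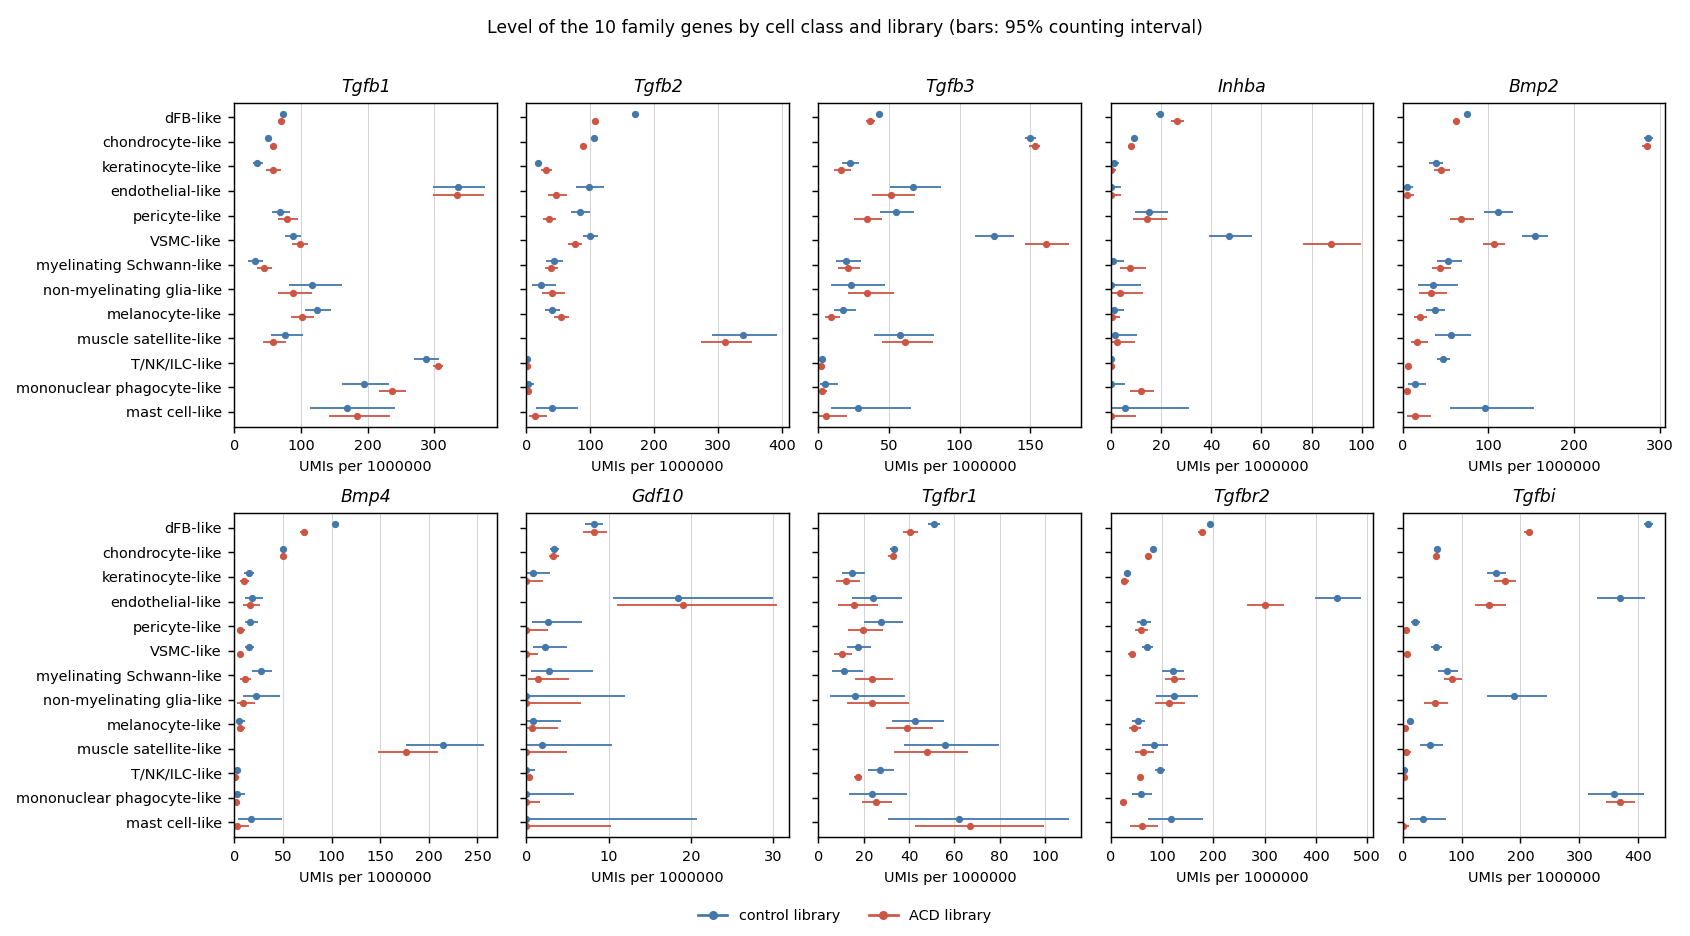
Level of each of the 10 genes (UMIs per 1000000, linear axis from 0, a separate scale for each gene) in 13 cell classes of the CTRL library (blue) and the ACD library (red); points are levels and bars are 95% counting intervals. Tgfb1 stood highest in endothelial-like and T/NK/ILC-like cells, Bmp2 in chondrocyte-like cells, and Tgfbi in dFB-like, endothelial-like and mononuclear phagocyte-like cells, with a lower ACD point in the first and second of these 3 classes.

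In the 8 main classes, each member past a 2-fold difference was lower in ACD. None of 10 members passed 2-fold in dFB-like cells, where 4.81% of all genes compared did, and none of 10 in chondrocyte-like cells, where 2.33% did. None of 8 passed in keratinocyte-like cells against 4.3% of all genes. In endothelial-like cells Tgfb2 and Tgfbi passed, 2 of 5 members against 4.61% of all genes. In pericyte-like cells Tgfb2 passed, 1 of 6 against 5.68%, and in VSMC-like cells Bmp4 and Tgfbi passed, 2 of 9 against 5.68%. Bmp2 passed in T/NK/ILC-like cells, 1 of 5 against 12.4%, and Tgfbr2 in mononuclear phagocyte-like cells, 1 of 4 against 11.4%. The median log2 ratio of the members was -0.25 in dFB-like cells (all genes -0.01), -0.56 in endothelial-like cells (-0.08), -0.59 in pericyte-like cells (-0.06), -0.54 in VSMC-like cells (-0.09) and -0.64 in T/NK/ILC-like cells (-0.13). It lay near that of all genes in chondrocyte-like (-0.04 and -0.05), keratinocyte-like (-0.06 and -0.08) and mononuclear phagocyte-like cells (0.06 and 0.03). With so few members in a class, each of these medians rests on 4 to 10 genes.

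**Figure D2:**
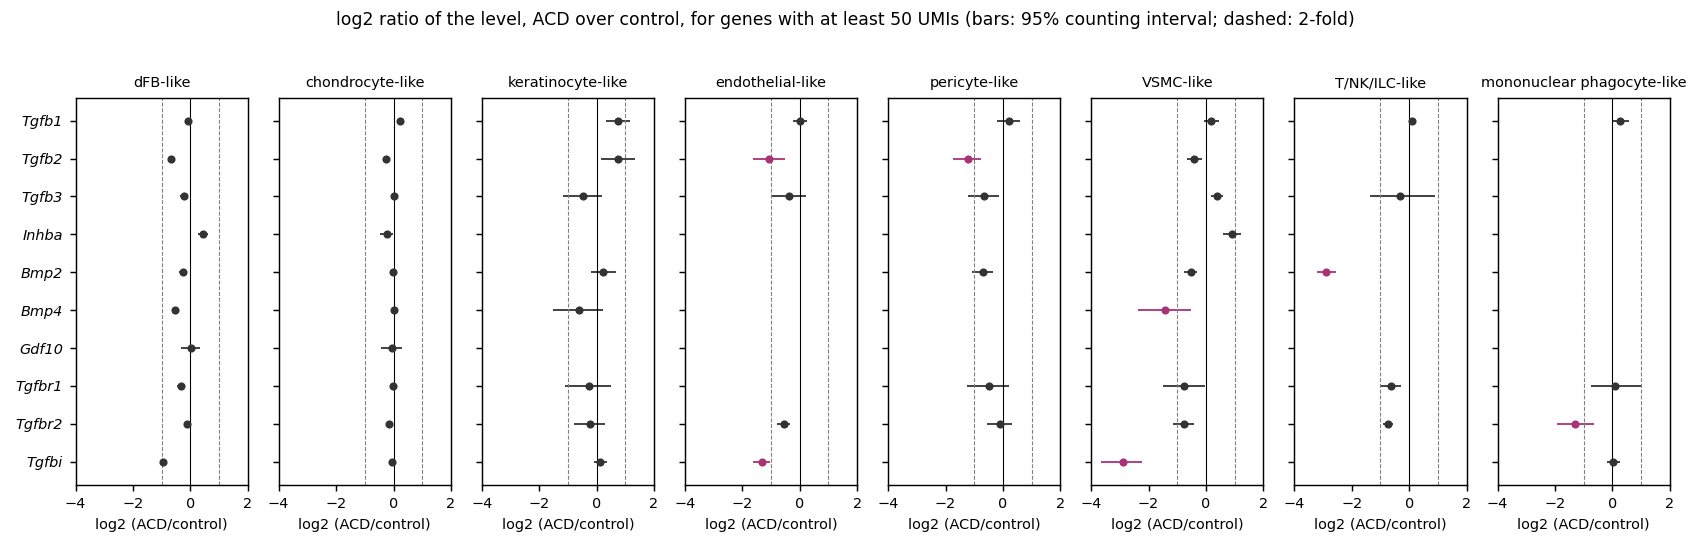
log2 ratio of the level in ACD over CTRL for members with at least 50 UMIs, 1 panel for each of the 8 main classes; points are ratios, bars are 95% counting intervals, dashed lines mark 2-fold, and purple points are past it. All 7 purple points lie on the left (lower in ACD), and the dFB-like and chondrocyte-like panels hold none.

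Tgfb1 encodes the TGF-β isoform most linked to immune regulation (ENSMUSG00000002603, chr7:25687002-25705077, + strand, GRCm38). Over all kept cells its level was 75.2 in CTRL and 132.8 in ACD UMIs per 1000000, with a log2 ratio of 0.82 (95% interval 0.78 to 0.86). In T/NK/ILC-like cells Tgfb1 was at 288 in CTRL and 305.5 in ACD (log2 ratio 0.08, -0.01 to 0.18). In endothelial-like cells it was at 335.6 and 335.0 (log2 ratio -0.00, -0.24 to 0.24), and in dFB-like cells at 72.9 and 69.4 (-0.07, -0.18 to 0.04). It was lower in all 9 dFB-like subtypes, by log2 ratios of -0.65 to -0.02, but the direction turned under alternatives in some of them (up to 0.09 in adipocyte progenitor-like cells). With the subtypes weighted as in CTRL, the log2 ratio was -0.21 in dFB-like and -0.16 in T/NK/ILC-like cells. The alternatives gave -0.21 to 0.12 for the dFB-like class. T/NK/ILC-like cells made up 6.83% of CTRL and 28.7% of ACD cells, and they held 14.0% (exact binomial interval 13.2 to 14.9) and 48.8% (48.0 to 49.7) of the Tgfb1 UMIs of their library.

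Tgfb1 was higher in ACD in 2 of the 8 main classes by an interval that lay above 0, and lower in none. Chondrocyte-like cells had 50.6 in CTRL and 58.5 in ACD (log2 ratio 0.21, 0.12 to 0.30). Keratinocyte-like cells had 34.4 and 57.9 (log2 ratio 0.75, 0.33 to 1.18, from 86 and 109 UMIs). Summed markers of mononuclear phagocytes, cells with more Tgfb1, were at 9.19 and 808 in keratinocyte-like and at 9.20 and 540.2 in chondrocyte-like cells. Of these 12 markers, 7 in CTRL and 4 in ACD had UMIs in keratinocyte-like cells, and 11 and 11 in chondrocyte-like cells. The sum holds H2-Ab1 and Cd74, which the check for mixed clusters did not count, so it need not reflect phagocytes. The part of these markers in the ratios was not tested. Mononuclear phagocyte-like cells had 194.8 and 236.9, with an interval of the ratio that touched 0 (-0.00 to 0.58). Among ACD lymphoid cells, Tgfb1 stood at 531 (506 to 558) in 617 NK/ILC1-like cells, above the 255 to 291 of the 6 other lymphoid subtypes. The CTRL library held 5 NK/ILC1-like cells with 4 Tgfb1 UMIs, so this subtype could not be compared between libraries.

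**Figure D3:**
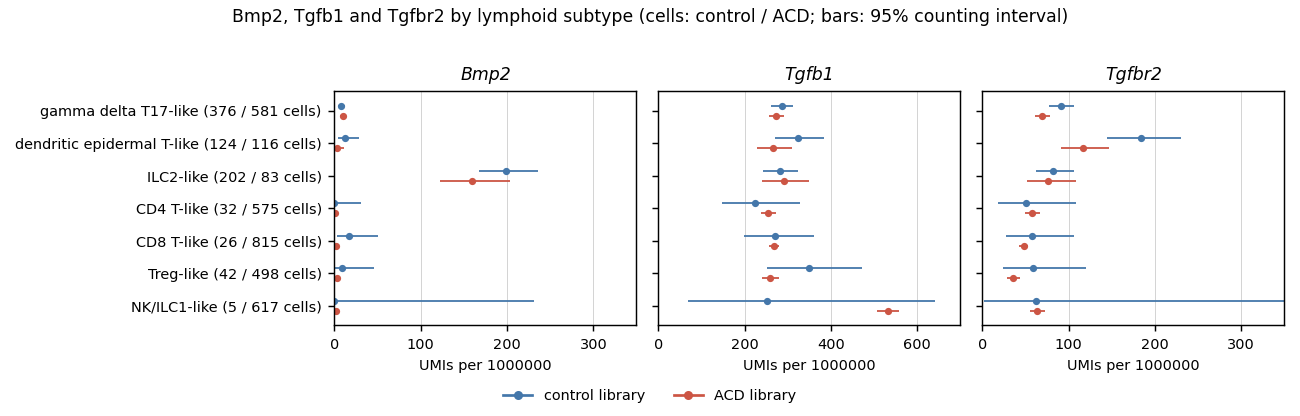
Level of Bmp2, Tgfb1 and Tgfbr2 (UMIs per 1000000, linear axes from 0) in 7 lymphoid subtypes of the CTRL (blue) and ACD (red) libraries, with cell numbers in the labels; bars are 95% counting intervals. Bmp2 stood at 199.4 and 159.3 in ILC2-like cells and below 20 in the other 6 subtypes, and Tgfb1 was highest in the NK/ILC1-like cells of ACD.

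Tgfb2 encodes the isoform known for mesenchymal and hair follicle expression (ENSMUSG00000039239, chr1:186622792-186705989, - strand). It was lower in ACD in 5 of the 6 main classes where it was compared and higher in keratinocyte-like cells. In dFB-like cells the level was 170.3 (165 to 175) in CTRL and 107.6 (103 to 113) in ACD, with a log2 ratio of -0.66 (-0.74 to -0.58) from 4515 and 1689 UMIs. In chondrocyte-like cells it was 106.3 and 88.6 (-0.26, -0.33 to -0.20). In VSMC-like cells it was 99.9 and 75.5 (-0.40, -0.68 to -0.13).

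The difference was past 2-fold in both small vascular classes. Endothelial-like cells had 98.0 and 46.9 (log2 ratio -1.06, -1.63 to -0.51, from 85 and 42 UMIs), a difference that was under 2-fold in 5 of 13 alternatives, down to -0.74 as a mean over cells. Pericyte-like cells had 83.7 and 35.6 (log2 ratio -1.23, -1.73 to -0.75, from 127 and 51 UMIs), with -1.27 to -0.82 over 11 alternatives, so not past 2-fold in each. Keratinocyte-like cells went the other way, with 18.4 in CTRL and 30.8 in ACD (0.74, 0.16 to 1.34, from 46 and 58 UMIs), but this log2 ratio was -0.70 over all deposited barcodes. Muscle satellite-like cells, the class with the highest level, had 339 and 312 (-0.12, -0.41 to 0.17).

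Across the 9 named or unnamed dFB-like subtypes, Tgfb2 was compared in 8 and was lower in ACD in each, by log2 ratios of -1.21 to -0.36. It was highest in dermal papilla-like cells, the fibroblasts at the base of the hair follicle, with 381.3 (337 to 430) in CTRL and 188.1 (160 to 219) in ACD (log2 ratio -1.02, and -1.07 to -0.58 over the alternatives, mostly under 2-fold). A cluster led by Cxcl9, Cxcl10 and Ccl19 had 249.3 and 107.6 (log2 ratio -1.21). It held 473 CTRL and 163 ACD cells, grouped after each library was centred. Before centring, the dFB-like cluster led by Cxcl9 and Saa3 held 8 CTRL and 425 ACD cells. The CTRL level of 249.3 is thus not shown to be one of Cxcl9-expressing fibroblasts. The dermal papilla-like cells and the cluster led by Cxcl9, Cxcl10 and Ccl19 were the only dFB-like subtypes where the difference passed 2-fold. Of all genes, 2.2% and 3.82% were past 2-fold and lower in them. Adipocyte progenitor-like cells (marked by Pi16) had 263.8 and 144.3, peri-follicular-like cells (Coch and Crabp1) 203.5 and 107.5, and preadipocyte-like cells (C7) 162.4 and 85.4, each close to 2-fold. The lowest of the named subtypes was the reticular/papillary-like one (Cyp2f2), with 62.4 and 48.8. The direction turned under other clusterings in 2 of the 5 named ones, to 0.04 in peri-follicular-like and to 0.66 in reticular/papillary-like cells. Weighting the dFB-like subtypes as in CTRL gave a log2 ratio of -0.75 for the class, against -0.66 unweighted. The dFB-like class as a whole had less of its own 8 marker genes in ACD, with a summed level of 37650 in CTRL and 23840 in ACD, and the part of this in the Tgfb2 difference was not tested.

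The 250 bases before the annotated start of Tgfb2 are shown because Tgfb2 and Tgfbi had the lowest log2 ratios of the 10 members in dFB-like cells, and Smad3 and Smad4 bind the Smad-binding element, of which the letters CAGAC are a part. Capitals mark CAGAC or, on the other strand, GTCTG, and the sequence is given 5′ to 3′ on the gene's strand (RefSeq, GRCm38.p6, chr1:186705990-186706239, - strand).
Tgfb2: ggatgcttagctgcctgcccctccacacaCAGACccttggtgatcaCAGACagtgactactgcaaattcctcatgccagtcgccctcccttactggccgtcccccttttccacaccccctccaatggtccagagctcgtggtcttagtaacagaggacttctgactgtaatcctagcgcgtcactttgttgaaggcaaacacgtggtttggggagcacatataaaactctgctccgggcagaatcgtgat
The window held 2 matches. Of 32851 RefSeq promoters, 42.2% held at least 1 match in a window of this length and place, so the match is a common one, and it shows neither binding nor regulation. A promoter sequence was given for 8 of the 10 members, and 5 of those held the letters in the first 250 bases of at least 1 of their promoters. That count is by gene and the 42.2% is by promoter, so they cannot be set against each other.

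Tgfb3 encodes the isoform known for expression in cartilage and muscle (ENSMUSG00000021253, chr12:86056745-86079041, - strand). Chondrocyte-like cells held 71.3% (70.3 to 72.2) of its CTRL UMIs and 72.3% (71.3 to 73.3) of its ACD UMIs. Their level was 150 in CTRL and 153.0 in ACD (log2 ratio 0.03, -0.02 to 0.08). VSMC-like cells had 124.0 and 161.2 (0.38, 0.17 to 0.59; -0.12 with each library clustered on its own), while pericyte-like cells had 54.7 and 34.2 (-0.68, -1.22 to -0.15). Clustered on its own, ACD had 393 VSMC-like and 0 pericyte-like cells, against 435 and 264 in CTRL, so the -0.12 does not compare like groups. In the main clustering, summed VSMC markers were at 10610 and 15680 in VSMC-like cells, and summed pericyte markers at 10270 and 4923 in pericyte-like cells. Their part in these ratios was not tested. In dFB-like cells Tgfb3 was at 42.9 and 36.8 (-0.22, -0.37 to -0.07), and the alternatives gave up to 0.24. By cartilage state it was highest in perichondrial-like cells, at 242.2 and 232.6, and lowest in mature (Acan) cells, at 77.7 and 57.3 (log2 ratio -0.44, -0.60 to -0.28), where the alternatives ran from -0.44 to 0.20.

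Inhba encodes the βA subunit of activin A (ENSMUSG00000041324, chr13:16011851-16031621, + strand). In VSMC-like cells it was at 47.1 (39.2 to 56.1) in CTRL and 87.6 (76.7 to 99.6) in ACD, with a log2 ratio of 0.89 (0.57 to 1.22) from 125 and 232 UMIs. Summed VSMC markers in these cells were at 10610 and 15680, and their part in this ratio was not tested. VSMC-like cells held 11.0% (9.23 to 13) of the CTRL and 21.5% (19.1 to 24.1) of the ACD UMIs of Inhba, with 3.56% and 2.09% of the cells. Chondrocyte-like cells had 9.49 and 8.01 (-0.24, -0.47 to -0.02), which came mainly from perichondrial-like cells at 37.8 and 24.4 (-0.63, -0.88 to -0.38). When no class was named from subtype markers, these cells left the class. The perichondrial label then lay on other cells and gave 0.24.

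In dFB-like cells Inhba was at 19.6 and 26.6 (log2 ratio 0.44, 0.25 to 0.63). Dermal papilla-like cells had 237 of the 519 CTRL and 259 of the 417 ACD UMIs of the class, at 338.5 (297 to 384) in CTRL and 297.1 (262 to 336) in ACD, with a log2 ratio of -0.19 whose interval held 0 (-0.45 to 0.07) and whose direction varied under other clusterings (-0.30 to 0.23). They numbered 79 of 3387 CTRL and 114 of 1531 ACD dFB-like cells. With the subtypes weighted as in CTRL, the log2 ratio of the class was -0.08. A cluster led by Lrrc15, Ednra and Acta2 had 38.9 and 36.7, and the remaining dFB-like subtypes were at or below 13.3 in both libraries. Mononuclear phagocyte-like cells had 0 UMIs of Inhba in CTRL, a level of up to 5.84 by its interval, and 27 UMIs in ACD (11.9, 7.87 to 17.4), at least 2.51-fold higher when CTRL is set to 3 UMIs. Of the ACD UMIs, 20 lay in 60 monocyte-like cells, a subtype with 1 cell in CTRL.

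**Figure D4:**
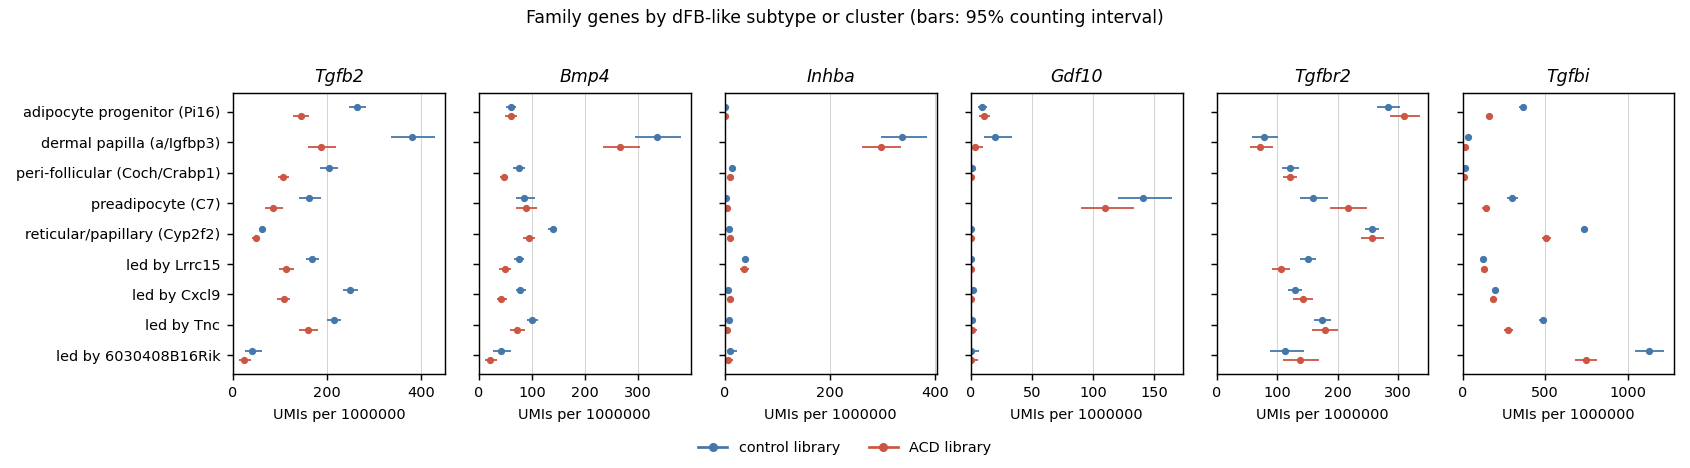
Level of 6 family genes (UMIs per 1000000, linear axes from 0) in 9 dFB-like subtypes or clusters of the CTRL (blue) and ACD (red) libraries; bars are 95% counting intervals. Inhba stood out in dermal papilla-like cells (338.5 and 297.1) and Gdf10 in preadipocyte-like cells (141.1 and 109.9), while Tgfb2 had its ACD point left of its CTRL point in every subtype drawn.

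Bmp2 encodes a BMP ligand known for driving cartilage and bone formation (ENSMUSG00000027358, chr2:133552159-133562885, + strand). Chondrocyte-like cells held 73.8% (73.1 to 74.5) of its UMIs in CTRL and 78.3% (77.6 to 79.0) in ACD. Their level was 286.9 (282 to 292) and 284.9 (280 to 290), with a log2 ratio of -0.01 (-0.05 to 0.03). Within cartilage, perichondrial-like cells had 258.0 and 205.9 (-0.33, -0.42 to -0.24), and a cluster led by Hba-a1, Hbb-bs and Dapl1 had the highest level, 412.7 and 411.4. The leading Hba-a1 and Hbb-bs are haemoglobin genes, which chondrocytes are not known for. In vascular classes Bmp2 was lower in ACD, with 154.1 and 106.1 in VSMC-like cells (-0.54, -0.76 to -0.32) and 110.7 and 67.8 in pericyte-like cells (-0.71, -1.08 to -0.34). In dFB-like cells it was 75.6 and 62.7 (-0.27, -0.38 to -0.16), with a log2 ratio of -0.08 when the subtypes were weighted as in CTRL. The highest dFB-like subtype was the dermal papilla-like one, with 232.8 and 267.2.

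In T/NK/ILC-like cells Bmp2 was at 46.8 (39.8 to 54.7) in CTRL and 6.33 (5.31 to 7.50) in ACD, with a log2 ratio of -2.88 (-3.23 to -2.54). Nearly all of the CTRL UMIs came from 1 subtype. ILC2-like cells, tissue-resident innate lymphocytes, had 136 of the 158 CTRL UMIs of the class and 63 of the 134 ACD UMIs. Their level was 199.4 (167 to 236) in CTRL and 159.3 (122 to 204) in ACD, with a log2 ratio of -0.32 with an interval that held 0 (-0.78 to 0.12). They were 202 of 834 CTRL and 83 of 3348 ACD cells of the class. γδ T17-like cells had 7.41 and 9.82 (0.41, -0.54 to 1.44). With the lymphoid subtypes weighted as in CTRL, the log2 ratio of Bmp2 in the class was -0.23.

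Bmp4 encodes a BMP ligand of the dermis and dermal papilla (ENSMUSG00000021835, chr14:46383520-46390669, - strand). In dFB-like cells it was at 103.9 in CTRL and 71.9 in ACD, with a log2 ratio of -0.53 (-0.63 to -0.43). Dermal papilla-like cells had the highest level of the subtypes, 335.6 and 267.2 (-0.33, -0.60 to -0.06), but the direction varied over the alternatives (to 0.20). Reticular/papillary-like cells had 139.0 and 93.7 (-0.57, -0.77 to -0.37), while adipocyte progenitor-like cells had 60.1 and 59.9. In chondrocyte-like cells as a whole Bmp4 was at 49.8 and 50.3 (0.02, -0.07 to 0.11). The states differed, with 43.3 and 25.4 in mature (Acan) cells (-0.77, -1.01 to -0.53) and 30.2 and 39.0 in a cluster led by Dpt, Fbln7 and Prss23 (0.37, 0.07 to 0.67). VSMC-like cells had 15.1 and 5.66, from 40 and 15 UMIs (-1.41, -2.38 to -0.52), and a mean over cells gave -0.48.

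Gdf10 encodes BMP3B, a BMP3-like ligand (ENSMUSG00000021943, chr14:33923587-33937983, + strand). It had 652 UMIs in all kept CTRL cells and 423 in ACD, the fewest of the 10 genes, and was compared in dFB-like and chondrocyte-like cells only. Their log2 ratios were 0.01 (-0.32 to 0.33) and -0.06 (-0.42 to 0.30), and -0.40 and 0.02 with the subtypes weighted as in CTRL. In fibroblasts it was concentrated in preadipocyte-like cells, at 141.1 (120 to 165) in CTRL and 109.9 (89.7 to 133) in ACD (log2 ratio -0.36, -0.73 to 0.01), with a direction that turned under other clusterings (to 0.98). These cells held 159 of the 217 CTRL and 103 of the 129 ACD UMIs of the dFB-like class. A mixed cluster of fibroblast and cartilage markers, led by Angptl7, Col6a6 and Myoc and left out of the class, had 85.7 and 49.4 (-0.79, -1.16 to -0.44). In cartilage it was found mostly in mature (Acan) cells, at 11.6 and 10.5. Endothelial-like cells had 16 and 17 UMIs, and T/NK/ILC-like cells 0 and 6.

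**Figure D5:**
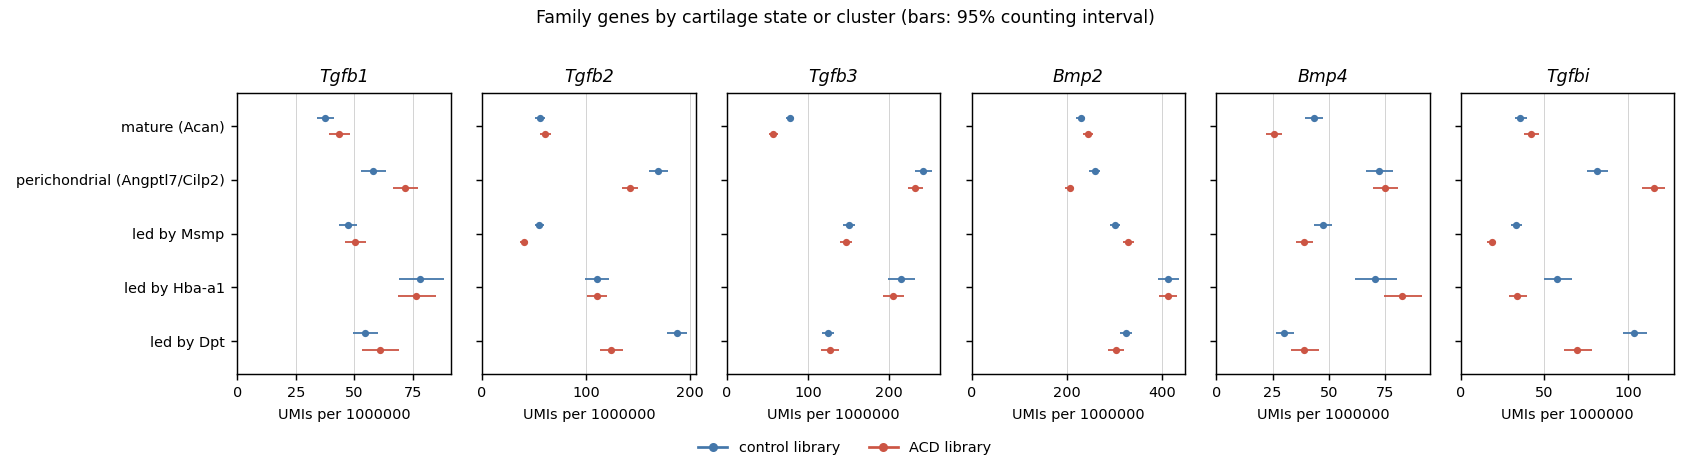
Level of 6 family genes (UMIs per 1000000, linear axes from 0) in 5 chondrocyte-like states or clusters of the CTRL (blue) and ACD (red) libraries; bars are 95% counting intervals. Bmp2 stood at 205.9 or more in every state, and Bmp4 and Tgfb3 were lower in the mature (Acan) state of ACD. Tgfbi was higher in the perichondrial-like state and lower in the 3 unnamed clusters. In the mature (Acan) state the directions of Tgfb3 and Tgfbi turned under alternatives (log2 ratios of up to 0.20 and down to -0.23). The perichondrial label gave -0.58 for Tgfbi when no class was named from subtype markers, where it lay on other cells.

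Tgfbr2 encodes the type II receptor that binds TGF-β (ENSMUSG00000032440, chr9:116084293-116175360, - strand). It was lower in ACD in each of the 8 main classes, and the interval of the ratio lay below 0 in 6. The ratio turned under an alternative in 3 of these classes, to 0.33 in keratinocyte-like, 0.09 in pericyte-like and 0.01 in dFB-like cells. Endothelial-like cells had the highest level, 441.7 (399 to 488) in CTRL and 300.4 (266 to 339) in ACD, with a log2 ratio of -0.56 (-0.79 to -0.33). VSMC-like cells had 70.9 and 41.2 (-0.78, -1.14 to -0.44), with -0.83 to -0.14 over the alternatives. Summed dFB markers in VSMC-like cells were at 6310 and 1078, and their part in this ratio was not tested. In dFB-like cells the difference was small, 194.1 and 177.4 (-0.13, -0.20 to -0.06), and with the subtypes weighted as in CTRL the log2 ratio was 0.01. Preadipocyte-like cells had a higher level in ACD, 159.7 and 216.7 (0.44, 0.14 to 0.74), while the cluster led by Lrrc15, Ednra and Acta2 had a lower level, 151.0 and 105.7 (-0.51, -0.76 to -0.27). All 5 cartilage states were lower in ACD, by log2 ratios of -0.26 to -0.12.

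In T/NK/ILC-like cells Tgfbr2 was at 95.9 and 57.3 (log2 ratio -0.74, -0.92 to -0.56), and at -0.27 with the subtypes weighted as in CTRL. Dendritic epidermal T-like cells, the γδ T cells of the epidermis, had 183.6 (145 to 230) and 116.6 (91.5 to 146), with a log2 ratio of -0.66 (-1.14 to -0.17). γδ T17-like cells had 91.1 and 69.5 (-0.39, -0.68 to -0.10), and ILC2-like cells 82.1 and 75.9 (-0.11, -0.80 to 0.55). In mononuclear phagocyte-like cells Tgfbr2 was at 58.6 (41.3 to 80.8) and 23.9 (17.9 to 31.1), from 37 and 54 UMIs (-1.30, -1.93 to -0.65). Macrophage-like cells gave 23 of the 37 CTRL UMIs, and they numbered 17 in CTRL and 1 in ACD.

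Tgfbr1 encodes the type I receptor that phosphorylates Smad2 and Smad3 (ENSMUSG00000007613, chr4:47353222-47414931, + strand). Its level in dFB-like cells was 50.9 in CTRL and 40.5 in ACD (log2 ratio -0.33, -0.47 to -0.19), and it was lower in all 8 dFB-like subtypes where it was compared (-0.47 to -0.19), though the alternatives reached 0.06 in dermal papilla-like cells. The ratio of the class was the same with the subtypes weighted as in CTRL (-0.33). In T/NK/ILC-like cells its level was 27.2 and 17.4 (-0.64, -0.98 to -0.30; -0.39 with the subtypes weighted as in CTRL), and in VSMC-like cells 17.3 and 10.2 (-0.77, -1.51 to -0.05). Chondrocyte-like cells had 33.2 and 32.7 (-0.02, -0.14 to 0.09). The intervals of mast cell-like, muscle satellite-like and dFB-like cells overlapped in turn at the top of the order in both libraries.

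Tgfbi encodes a secreted matrix protein whose gene is a classical TGF-β target (ENSMUSG00000035493, chr13:56609523-56639562, + strand). In dFB-like cells it was at 417.2 (410 to 425) in CTRL and 213.8 (207 to 221) in ACD, with a log2 ratio of -0.96 (-1.02 to -0.91) from 11063 and 3355 UMIs. This class held 66.0% (65.3 to 66.7) of the CTRL and 41.1% (40.1 to 42.2) of the ACD UMIs of the gene. Weighting the subtypes as in CTRL gave -0.59. T/NK/ILC-like cells had 2.07 and 1.80.

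Tgfbi varied widely among fibroblasts. A cluster led by 6030408B16Rik, Vtn and Sfrp5 had 1131 (1045 to 1222) in CTRL and 746.5 (681 to 817) in ACD, and reticular/papillary-like cells had 732.8 (714 to 752) and 506.7 (480 to 535), log2 ratios of -0.60 and -0.53. The difference passed 2-fold in adipocyte progenitor-like cells, 363.9 and 161.5 (log2 ratio -1.17, -1.36 to -0.99), where 1.72% of all genes were past 2-fold and lower. It also passed in preadipocyte-like cells, 299.0 and 140.9 (log2 ratio -1.09, -1.39 to -0.79), where 2.22% were. Neither difference passed it under every alternative, with -1.40 to -0.42 in adipocyte progenitor-like and -1.39 to -0.59 in preadipocyte-like cells. Peri-follicular-like cells had almost none, 13.7 and 11.0, and the cluster led by Lrrc15, Ednra and Acta2 had 125.7 and 127.9. Reticular/papillary-like cells, with a high level, were 825 of 3387 CTRL and 188 of 1531 ACD dFB-like cells.

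The RefSeq promoter bases before the GENCODE start of Tgfbi are printed for comparison with Tgfb2, with the same letters in capitals (RefSeq, GRCm38.p6, chr13:56609336-56609522, + strand, 187 bases).
Tgfbi: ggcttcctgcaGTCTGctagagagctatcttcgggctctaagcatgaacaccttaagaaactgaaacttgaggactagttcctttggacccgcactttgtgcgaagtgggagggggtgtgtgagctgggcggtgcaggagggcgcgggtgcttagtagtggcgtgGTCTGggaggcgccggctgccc
This window also held 2 matches, and 34.2% of the 32851 promoters held at least 1 in a window of the same length.

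Outside fibroblasts, Tgfbi was lower in both vascular classes where it passed 2-fold. Endothelial-like cells had 369.1 (330 to 412) and 147.4 (123 to 175), with a log2 ratio of -1.32 (-1.63 to -1.03). VSMC-like cells had 56.2 (47.5 to 65.9) and 7.55 (4.61 to 11.7), with a log2 ratio of -2.89 (-3.65 to -2.22) from 149 and 20 UMIs. That ratio was 2.75 when cells were assigned one by one from class markers, without clusters, from under 50 UMIs. With doublet calls left out, Tgfbi and Bmp4 each had under 50 UMIs in VSMC-like cells and were not compared, at log2 ratios of -3.43 and -2.85. The 8 dFB markers, all with UMIs in VSMC-like cells of both libraries, had a summed level of 6310 in CTRL and 1078 in ACD there. In endothelial-like cells the same markers were at 222.6 and 125.1, with 8 and 7 of them detected. The median UMI count per cell of VSMC-like cells was 4892 in CTRL and 9962 in ACD, and that of endothelial-like cells 4549.5 and 8230. The part of these differences in the Tgfbi and Bmp4 ratios was not tested, nor was it for Tgfb2, Tgfbr1 and Tgfbr2 in VSMC-like cells. For the Tgfb2 ratio of pericyte-like cells, dFB markers were at 5468 and 4394, chondrocyte markers at 1024 and 256.4, and the 7 pericyte markers themselves at 10270 and 4923, and their part was not tested either.

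In chondrocyte-like cells as a whole Tgfbi was at 58.1 and 56.1 (log2 ratio -0.05, -0.14 to 0.03). Perichondrial-like cells had 81.4 (75.3 to 87.8) and 115.3 (109 to 122), with a log2 ratio of 0.50 (0.36 to 0.65). When no class was named from subtype markers, these cells left the chondrocyte-like class. The perichondrial label then lay on other cells and gave -0.58, which is not a value of the same cells. Mature (Acan) cells had 35.6 and 42.1 (0.24, 0.03 to 0.45; -0.23 to 0.32 over the alternatives). The clusters led by Msmp, by Hba-a1, Hbb-bs and Dapl1, and by Dpt, Fbln7 and Prss23 had log2 ratios of -0.84, -0.77 and -0.58. The part of the phagocyte markers given above for chondrocyte-like cells was not tested here either.

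Among mononuclear phagocyte-like cells Tgfbi was at 359.6 and 369.5 (log2 ratio 0.04, -0.17 to 0.26), carried by different subtypes. The alternatives gave -0.39 to 3.17, the highest with each library clustered on its own. Macrophage-like cells had 1216 (1008 to 1454) in CTRL, in 17 cells, against 1 ACD cell. Monocyte-like cells had 1335 (1221 to 1457) in 60 ACD cells, against 1 CTRL cell with 0 UMIs. Dendritic-like cells, present in both libraries (20 and 89 cells), had 478.2 and 301.1 (-0.67, -1.01 to -0.31). Keratinocyte-like cells had 158.3 and 173.1 (0.13, -0.09 to 0.34). Non-myelinating glia-like cells had 189.0 and 54.1, from 58 and 30 UMIs.

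The other genes of the pathway were taken from a list of 83 that holds the 10 members, grouped as ligands, receptors, Smads, latency and activation genes, secreted antagonists and targets. Of all genes compared, those past 2-fold and higher in ACD were 3.49% in dFB-like, 1.84% in chondrocyte-like, 2.52% in endothelial-like and 4.86% in T/NK/ILC-like cells. Those past 2-fold and lower were 1.33% in dFB-like, 0.49% in chondrocyte-like, 1.79% in keratinocyte-like, 2.1% in endothelial-like, 3.37% in pericyte-like, 3.72% in VSMC-like, 4.58% in mononuclear phagocyte-like and 7.51% in T/NK/ILC-like cells. In dFB-like cells 69 of the 83 were compared, of which 1 passed 2-fold higher and 1 lower. The higher was Grem1, a secreted BMP antagonist, at 1.36 and 5.93 (log2 ratio 2.13, 1.56 to 2.72, from 36 and 93 UMIs), mostly in reticular/papillary-like cells at 3.45 and 18.7. The lower was Acvr1c, the receptor ALK7, with 46 and 10 UMIs. Of 12 target genes on the list all 12 were compared in dFB-like cells and none passed 2-fold, and their median log2 ratio was -0.13. Tgfbi, at -0.96, was among them.

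In chondrocyte-like cells 72 were compared, with 1 past 2-fold in each direction. Chrdl2, which encodes the chordin-like BMP antagonist, was at 1.51 (1.16 to 1.94) in CTRL and 14.9 (13.7 to 16.2) in ACD, with a log2 ratio of 3.30 (2.92 to 3.70) from 63 and 549 UMIs. Mature (Acan) cells had 3.02 and 50.9 and held 436 of the 549 ACD UMIs. The cluster led by Dpt, Fbln7 and Prss23 had 3.62 and 19.8, and perichondrial-like cells had 0 and 4 UMIs. Bmp3, a BMP ligand that opposes other BMPs, was at 1.23 and 0.433, from 51 and 16 UMIs, of which 43 and 15 lay in perichondrial-like cells.

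Of 36 genes compared in endothelial-like cells, 1 passed 2-fold higher, namely Smad7, which encodes an inhibitory Smad (21.9 and 46.9, log2 ratio 1.10, 0.28 to 1.96), and 2 lower, both members. In VSMC-like cells 5 of 53 passed lower and none higher. Besides Bmp4 and Tgfbi these were Fst, which encodes the activin antagonist follistatin (24.9 and 3.40), Ltbp4, which encodes a latent TGF-β binding protein (118.7 and 33.2), and the receptor gene Acvr2b (16.2 and 7.93). In pericyte-like cells 5 of 49 passed lower and none higher, with Ltbp4 at 97.5 and 35.6, Ltbp2 at 27.0 and 11.9, the decoy receptor gene Bambi at 106.7 and 41.2, and Timp3, a protease inhibitor of the matrix, at 1990 and 951.4. The marker values given above for these classes apply here too.

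In T/NK/ILC-like cells 42 were compared, with 5 past 2-fold higher and 7 lower. The activin receptor gene Acvr2a was at 68.1 and 12.1 (log2 ratio -2.49), with 108.5 and 123.9 in ILC2-like cells and 72.9 and 34.0 in γδ T17-like cells. The BMP ligand gene Bmp7 was at 16.6 and 3.07 (-2.43), with 29.3 and 35.4 in ILC2-like cells. Lrrc32, which encodes GARP, the surface anchor of latent TGF-β on regulatory T cells, was at 1.48 and 5.10 (1.79), and 83 of its 108 ACD UMIs lay in Treg-like cells. Treg-like cells numbered 42 in CTRL, with 1 Lrrc32 UMI, and 498 in ACD, and their own ratio had an interval of -0.53 to 7.31. Acvrl1, the receptor ALK1, was at 10.4 and 3.88, and Gdf11, an activin-like ligand gene, at 2.07 and 4.77. Of the 101 ACD UMIs of Gdf11, 48 lay in CD8 T-like cells, which numbered 26 in CTRL and 815 in ACD. In mononuclear phagocyte-like cells 4 of 23 passed lower, which were Tgfbr2, the BMP receptor gene Bmpr2 (53.9 and 19.0), Smad1 (60.2 and 24.3) and the ubiquitin ligase gene Smurf2 (42.8 and 18.1). Macrophage-like cells (17 and 1) held 12 of the 34 CTRL UMIs of Bmpr2 and 9 of the 27 of Smurf2. Langerhans-like cells (32 and 28) had Bmpr2 at 59.4 and 13.7, Smad1 at 63.1 and 52.4, and Smurf2 at 48.2 and 25.1. Dendritic-like cells (20 and 89) had Bmpr2 at 20.8 and 13.9, Smad1 at 46.8 and 17.1, and Smurf2 at 15.6 and 15.0. The part of the subtype mix in the class ratios was not tested. In keratinocyte-like cells 1 of 45 passed lower, Fstl1, a follistatin-like secreted protein (104 and 32 UMIs), and dFB markers there were at 1238 and 191.6, whose part was not tested.

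Likeness of pattern was described by the Pearson correlation of log2(UMIs per 1000000 + 10) over 54 profiles of classes and subtypes, among 11893 genes. The profiles share 2 libraries and their depth, and cells of a class are also in its subtypes, so they are not independent. The genes most like Tgfb2 were Rbfox2 (r = 0.93), Rbms3 (0.91) and Nfia (0.91), and those most like Tgfb3 were Ltbp3 (0.90), Pkd1 (0.90) and Ehd2 (0.89). For Tgfb1 they were Lrrfip1 (0.89), Tpm3 (0.88) and Actr2 (0.86), and for Bmp4 Ubtd2 (0.90), Igf2 (0.88) and 2700081O15Rik (0.88). For Tgfbi they were Ctsh (0.85), Psap (0.79) and Gda (0.78), and for Gdf10 Sfrp4 (0.85), C7 (0.84) and Agt (0.82), of which C7 marks the preadipocyte-like subtype. Bmp2 was nearest to Scara3 (0.82), Fgf2 (0.78) and Trabd2b (0.77), and Tgfbr2 to Ntn1 (0.80), Radil (0.77) and Ace (0.75). Inhba was near to Lingo1 (0.78) and Vipr2 (0.77). For Tgfbr1 no gene exceeded AI314180 (0.65), Pde4d (0.65) and Ncam1 (0.65).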

How the data were processed

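Ear skin cells of 1 CTRL and 1 ACD library were measured by 3′ single-cell RNA-seq. The authors aligned the reads to mm10 with Cell Ranger (version 3.1.0 in the submitters' processing notes) and deposited filtered matrices of UMI counts per gene and barcode, with no normalization. Strand and intron settings of the counting were not given in the sources used here.

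From these counts, barcodes were filtered at over 200 and under 5000 genes, up to 25000 UMIs and less than 8% of UMIs from mitochondrial genes. This kept 94.7% of CTRL and 88.6% of ACD barcodes. Cells of both libraries were clustered together (scanpy 1.11.5, leidenalg 0.10.2, 2000 variable genes, 30 components, 20 neighbours, resolution 1, values scaled to 10000 UMIs per cell). Cells of the dFB-like, T/NK/ILC-like, mononuclear phagocyte-like and endothelial-like classes were clustered again within their class. Each library was centred for this in the dFB-like and endothelial-like classes only. The cartilage states are clusters of the first round. Clusters were named from 244 marker genes, of which 242 matched. The check for mixed clusters was made within dFB-like, chondrocyte-like, T/NK/ILC-like, mononuclear phagocyte-like and endothelial-like cells. A cluster there with 3 or more markers of another class past 2-fold was called mixed and left out of its class. Clusters left unnamed between classes were left out too. The check did not count H2-Ab1 and Cd74, nor dFB markers in chondrocyte-like cells, and spared clusters with at least 3 leading markers of their closest subtype. A perichondrial (1822 cells) and a peri-follicular cluster (914 cells) took their class from at least 3 leading subtype markers. Doublets were called with Scrublet (4.77% of CTRL and 3.53% of ACD cells) and were left out only in an alternative. The 10 genes and the 83 genes of the pathway list took no part in the clustering.

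UMIs were summed over cells by library and class or subtype and divided by all UMIs of those cells, per 1000000. Intervals were exact at the 95% level (Poisson for levels, conditional binomial for ratios, Clopper-Pearson for shares; scipy 1.17.1). A 0 was read against a floor of 3 counts. The scripts were tested on simulated data. Gene positions are from GENCODE M21 (GRCm38). Level and UMI depth limit each value, with kept cells at a median of 6850 UMIs in CTRL and 7447 in ACD.

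Named were the 10 members, up to 5 pathway genes per main class past 2-fold with at least 50 UMIs, the 3 genes most like each member among genes with at least 500 UMIs, and leading genes of clusters. Some genes that this rule names are not reported here. The members and all lists were chosen with earlier results of these data known. Alternatives changed the cell filter, doublets, resolution, variable genes, joint clustering, use of clusters, weight of cells, normalization, minimum UMIs and fold.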

Additional observations from a re-analysis of the deposited data

Results flagged for a closer look

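For 3 genes the counting intervals lay on opposite sides of no difference in 2 main classes. These differences between classes were not tested, since each condition was 1 library. The log2 ratio of Tgfb2 was 0.74 in keratinocyte-like cells and -1.23 in pericyte-like cells. That of Tgfb3 was 0.38 in VSMC-like cells and -0.68 in pericyte-like cells, although both are mural cells of vessels. That of Inhba was 0.89 in VSMC-like cells and -0.24 in chondrocyte-like cells. Summed VSMC markers were at 10610 in CTRL and 15680 in ACD in VSMC-like cells, and at 6167 and 8737 in pericyte-like cells. Summed pericyte markers were at 10270 and 4923 in pericyte-like cells. The part of these shifts in the Tgfb3 and Inhba ratios was not tested. The keratinocyte-like ratio of Tgfb2 and the VSMC-like ratio of Tgfb3 turned sign under 1 or more of the alternative settings (lowest values -0.70 and -0.12). The -0.12 came with each library clustered on its own. ACD then had 393 VSMC-like and 0 pericyte-like cells, against 435 and 264 in CTRL, so that value does not compare like groups of cells.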

How the results depend on the processing

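With 1 library per condition, no result has a replicate check, and genes with few UMIs in small classes are the least precise. No paired analysis was possible because each condition was 1 library and the labels carry no replicate numbers. Counts of members past 2-fold that moved from the values above were as follows. Over all deposited barcodes they were 1 in dFB-like (Tgfbi), 4 in endothelial-like (Tgfb2, Bmp2, Gdf10 and Tgfbi, of which 1 was higher in ACD) and 0 in pericyte-like cells. With at least 500 genes and under 5% mitochondrial UMIs they were 1 in dFB-like (Tgfbi), 1 in endothelial-like (Tgfbi) and 2 in mononuclear phagocyte-like cells (Tgfbr1, higher in ACD, and Tgfbr2). With Scrublet calls left out the count was 0 in VSMC-like cells, where Bmp4 and Tgfbi then had under 50 UMIs, and with each library clustered on its own it was 1 in dFB-like cells. With cells assigned without clusters it was 0 in pericyte-like and 0 in VSMC-like cells (Bmp4 and Tgfbi again under 50 UMIs), and the log2 ratio of Tgfbi turned to 2.75 in VSMC-like and 0.88 in non-myelinating glia-like cells. With a mean over cells the counts were 1 in keratinocyte-like (Bmp4), 1 in endothelial-like, 1 in VSMC-like and 0 in mononuclear phagocyte-like cells. With size factors the count was 1 in endothelial-like cells. With at least 20 UMIs the counts were 3 in pericyte-like, 3 in mononuclear phagocyte-like (Inhba higher in ACD, Bmp2 and Tgfbr2 lower) and 2 in T/NK/ILC-like cells, and with 1 UMI in each library 3, 2 and 2, since more genes were compared. At 1.5-fold they were 2 in dFB-like, 3 in keratinocyte-like, 3 in pericyte-like, 5 in VSMC-like and 3 in T/NK/ILC-like cells. The cause of the other moves was not tested. Pericyte-like and VSMC-like cells gave no value under the stricter cell filter, nor did pericyte-like cells with each library clustered on its own, where these classes held under 25 cells in a library.

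Of the alternatives, 4 were added after seeing the data, namely no centring, no class from subtype markers, mixed clusters kept in their class, and subtypes weighted as in CTRL. With mixed clusters kept the counts were 1 in endothelial-like and 3 in T/NK/ILC-like cells. At an equal count other members passed under some settings, namely Tgfbi, higher in ACD, in place of Tgfbr2 in mononuclear phagocyte-like cells with each library clustered on its own, Bmp2 in place of Tgfbr2 there with mixed clusters kept, and Bmp2 in place of Tgfb2 in endothelial-like cells with cells assigned without clusters. With weighting, Tgfb3 and not Bmp2 passed in T/NK/ILC-like cells. The log2 ratio of Tgfb2 in dFB-like cells ranged from -0.75 to -0.51 over all settings and that of Tgfbi from -1.10 to -0.59. Tgfb2 in endothelial-like cells was under 2-fold with the stricter cell filter (-0.93), without clusters (-0.98), with mixed clusters kept (-0.91), as a mean over cells (-0.74) and with size factors (-0.99). Bmp2 in T/NK/ILC-like cells ranged from -2.89 to -0.23, Tgfbr2 in mononuclear phagocyte-like cells from -1.63 to -0.45, and Bmp4 in VSMC-like cells from -2.85 to -0.48.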
